A study of Mus musculus with 502 samples.

Results

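Lyz2+ Csf1r+ C1q-low cells were the Cd45+ kidney cells that carried at least 5 reads on Lyz2, which encodes the lysozyme of myeloid cells, and at least 5 on Csf1r, which encodes the receptor for colony stimulating factor. They also carried fewer than 5 reads on C1qa or on C1qb, which encode chains of complement C1q, and fewer than 5 on both Cd3e and Cd79a, which encode parts of the T cell and B cell receptor complexes. These 6 genes selected 83 of the 502 sequenced cells. A working label had called them monocytes and dendritic-like cells. Genes of monocytes were present in many of them, while the defining dendritic genes were low or at 0 in most of them, so they are named here by the genes of the rule.

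The cells came from kidneys of wild type CD1 mice of about 3 weeks, which were removed without perfusion, so blood leukocytes in the vessels were not washed out. Kidneys were dissociated fresh or after storage of the intact organ at 4 °C in HTS-FRS, a hypothermic preservation solution, for 6 h or for 1, 2, 3 or 4 days, and the study asks what such storage does to single-cell expression. Every group shared the genotype, the enzymatic dissociation and the sort of viable Cd45+ singlets. The groups differed in storage time and also in the amount of kidney tissue, which was smaller at the longest storage times. Only sorted cells that gave enough cDNA were sequenced, and the rate of such cells was reported to fall at the longest storage time. Shares of sequenced cells therefore describe the cells that passed that step. Labels name no animal, the methods pool kidney tissue of the same mouse, and the cells of a timepoint in a pool were therefore handled as 1 group with no test between groups. A code in the sample titles, whose meaning the labels do not state and which is called a pool here, divides the cells into pool A (fresh, 6 h and day 2, with 2 cells of day 4), pool B (fresh, days 1 and 3, with 19 cells of day 4) and pool C (14 cells of day 4).

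Monocytes are blood phagocytes that arise in the bone marrow. In the mouse, classical monocytes carry Ly6C and the chemokine receptor CCR2 and enter inflamed tissue, while nonclassical monocytes depend on the nuclear receptor NR4A1, use the integrin LFA-1 and patrol the vessel wall. Resident kidney macrophages, in contrast, make complement C1q and carry F4/80 and CX3CR1, and conventional dendritic cells depend on FLT3 and express the transcription factor ZBTB46.

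A gene is called present in a cell that had at least 5 reads on it, and rpm are reads scaled to 1000000 reads on genes of that cell. The 83 cells had between 198437 and 1448428 reads on genes, with a median of 657410. Genes detected with 1 read or more had a median of 2303 per cell (range 834 to 5626), against 1977 in the 87 cells that carried Lyz2, Csf1r and both C1q genes (C1q cells below) and 1830 in all 419 other cells. With every cell thinned to 100000 reads the medians were 1903, 1613 and 1497 genes. No doublet caller was run. Intervals of shares are exact Clopper-Pearson and those of summed CPM (counts over all cells of a group, on the same scale) exact Poisson, at the 95% level, and both cover counting error only.

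The values that chose the cells are a description. Lyz2 had 13.4 to 50335 rpm with a median of 10534, and Csf1r had 9.13 to 8443 rpm with a median of 1584. The lowest cells inside the rule had 9 and 12 reads on Lyz2 and 6 and 7 on Csf1r, and 9 of the 83 had under 50 reads on either gene. Just outside it were 5 cells that missed only Csf1r with 1 to 4 reads and 1 cell that missed only Lyz2. No read on C1qa or C1qb was found in 77 of the 83, whereas the lowest C1q cell had 18 reads on C1qa and 8 on C1qb. Among the cells with a read on either gene, 3 had at least 5 reads on C1qb, while C1qa had at most 3 reads in any cell. C1qb reached 570 reads (2543 rpm) and C1qc 439 reads, so C1q was not low in every cell.

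The share of sequenced cells that met the rule was highest in the fresh cells of pool A. There, 39 of 75 cells met it (52%, interval 40.2 to 63.7%), against 4 of 81 fresh cells of pool B (4.94%, 1.36 to 12.2%). The intervals of these 2 fresh groups do not overlap. Within pool A the share was 16 of 76 at 6 h (21.1%, 12.5 to 31.9%) and 4 of 78 at day 2 (5.13%, 1.41 to 12.6%). Within pool B it was 12 of 75 at day 1 (16%, 8.55 to 26.3%), 5 of 82 at day 3 (6.10%, 2.01 to 13.7%) and 0 of 19 at day 4, which allows up to 17.6%. At day 4 it was 1 of 2 in pool A (50%) and 2 of 14 in pool C (14.3%, 1.78 to 42.8%). In pool A the shares at 6 h and day 2 were thus below that of fresh cells, with 2 cells too few to place day 4, and in pool B they did not follow storage time.

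**Figure D1:**
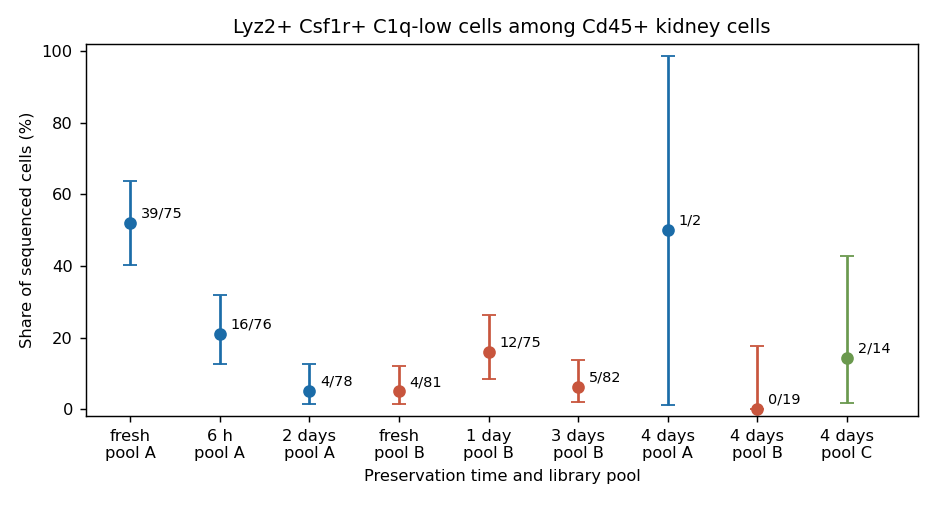
Share of sequenced cells that met the rule (vertical axis, percent) at each timepoint and pool, with exact 95% intervals as bars, pool A in blue, pool B in red and pool C in green, and the counts printed beside the points. Fresh cells of pool A stand at 52%, and no other group of more than 2 cells exceeds 21.1%.

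The share of lymphoid cells varied beside these values. In the fresh groups, cells with Cd3e or Cd79a made up 12% of pool A and 75.3% of pool B. In stored groups of pool A they were 38.2% (6 h) and 59% (day 2), and in those of pool B 28% (day 1) and 14.6% (day 3). As a share of the cells without those 2 genes, Lyz2+ Csf1r+ C1q-low cells were 59.1% in fresh pool A and 34% at 6 h, and 20% in fresh pool B and 22.2% at day 1. They were 12.5% at day 2, 7.14% at day 3 and 10% at day 4. Both fresh groups share their storage time, and animal and pool cannot be told apart between them. Within a pool, animal and storage time cannot be told apart.

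Against C1q cells, the share of Lyz2+ Csf1r+ C1q-low cells in which a gene was present differed by at least 25 percentage points for 500 of 6560 genes. It was higher for 391 of these (5.96% of all compared) and lower for the rest (1.66%). Only genes present in at least 10% of either group were counted. The median gene was 4.06 points higher, and the cells also held more genes, as given above. The number of lower genes depended on the cells compared. It was 596 in fresh cells alone, 259 in pool A and 176 in pool B, where there were fewer cells, beside 364, 387 and 368 higher. Because the same cells were selected by expression, these counts describe the group and carry no test. C1qa and C1qb, which the rule used, are among the lower genes by construction.

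Of 14 genes in a list for classical monocytes, 13 could be compared, 9 were higher by 25 points or more and 0 were lower, with a median gap of 35.1 points. Plac8 (chromosome 5, 100553725 to 100572245 in GRCm38), a cysteine-rich protein of myeloid cells, had 0 to 12124 rpm with a median of 1923. It was present in 73 of 83 cells (88%) against 3 of 87 C1q cells (3.45%), with summed levels of 2507 against 16.1 CPM, a log2 ratio of 7.29. Ly6c2, the Ly6C antigen, was present in 42 cells (50.6%) and in 0 C1q cells, with a median of 62 and a highest value of 7829 rpm. Ccr2 was present in 67.5% against 12.6%, S100a4, a calcium-binding protein, in 53% against 3.45%, Ms4a4c in 57.8% against 3.45%, and Hp, haptoglobin, in 33.7% against 1.15%. Genes of the same list that few of the cells carried were Chil3, a chitinase-like protein, in 8 cells and Vcan, the proteoglycan versican, in 11, with 0 C1q cells for both.

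Genes of nonclassical monocytes were present in the same group of cells. Of 19 list genes, 17 could be compared, 8 were higher and 1, Cx3cr1, was lower, with a median gap of 22.7 points. Treml4 (chromosome 17, 48264295 to 48275360), a receptor of the TREM family, had 0 to 3553 rpm with a median of 372, and was present in 52 cells (62.7%) against 3 C1q cells (3.45%). Ace (chromosome 11, 105967945 to 105989964), angiotensin converting enzyme, had 0 to 2552 rpm with a median of 34.1, and was present in 45 cells (54.2%) against 1 C1q cell (1.15%). The log2 ratios of summed CPM were 6.66 for Treml4 and 5.97 for Ace. Ceacam1, an adhesion receptor, stood at 62.7% against 2.30%, Nr4a1 at 88% against 28.7%, and Cebpb, a transcription factor of monocyte maturation, at 85.5% against 28.7%. Cx3cr1 was present in 41% against 85.1%, and its summed level was lower by 3.08 on the log2 scale. Fresh pool A, day 1 and day 3 each held at least 5 cells of both groups, and in all 3 of them Plac8, Ly6c2, Ccr2, Treml4, Ace and Nr4a1 were present in a larger share of Lyz2+ Csf1r+ C1q-low cells, by a gap of any size, and Cx3cr1 was not. For Ly6c2 at day 1 that gap was 2 of 12 cells (16.7%) against 0 C1q cells, under 25 points.

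Of the 4 marker genes given with the label that the rule did not use, Itgam, the CD11b chain of an integrin, was present in 50 cells (60.2%) against 11.5% of C1q cells and 11% of all other cells. Ear2, a ribonuclease of the eosinophil-associated family, was present in 41 cells (49.4%) against 2.30% and 2.15%, although a single cell held 27.4% of its summed reads. Ms4a6d, a membrane protein of the MS4A family, was present in 45 cells (54.2%) against 26.4% and 6.92%, and Cfb, complement factor B, in 28 cells (33.7%) against 4.60% and 0.955%. By a gap of any size, Itgam and Ear2 were higher than in C1q cells in all 3 of the groups above, and Ms4a6d and Cfb in 1 of 3. Ear2 and the Ms4a and Ly6 genes have near-identical relatives, so their reads may be split among copies.

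Adhesion and migration genes gave 11 of 18 higher and 1 lower, with a median gap of 33.3 points. Itgal, the LFA-1 chain, had 0 to 6800 rpm with a median of 732 and was present in 84.3% against 14.9%. Itga4 and Itgb7, which form the alpha4 beta7 integrin, were present in 81.9% against 13.8% and in 63.9% against 1.15%. S1pr5, the sphingosine phosphate receptor used by patrolling monocytes to leave bone marrow, was present in 29 cells against 1 C1q cell. Outside the lists, the cytoskeletal gene Vim was present in 71 cells against 15, the lectin Lgals3 in 77 against 22, the kinase gene Fgr in 58 against 4 and the receptor gene Il17ra in 58 against 4.

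**Figure D2:**
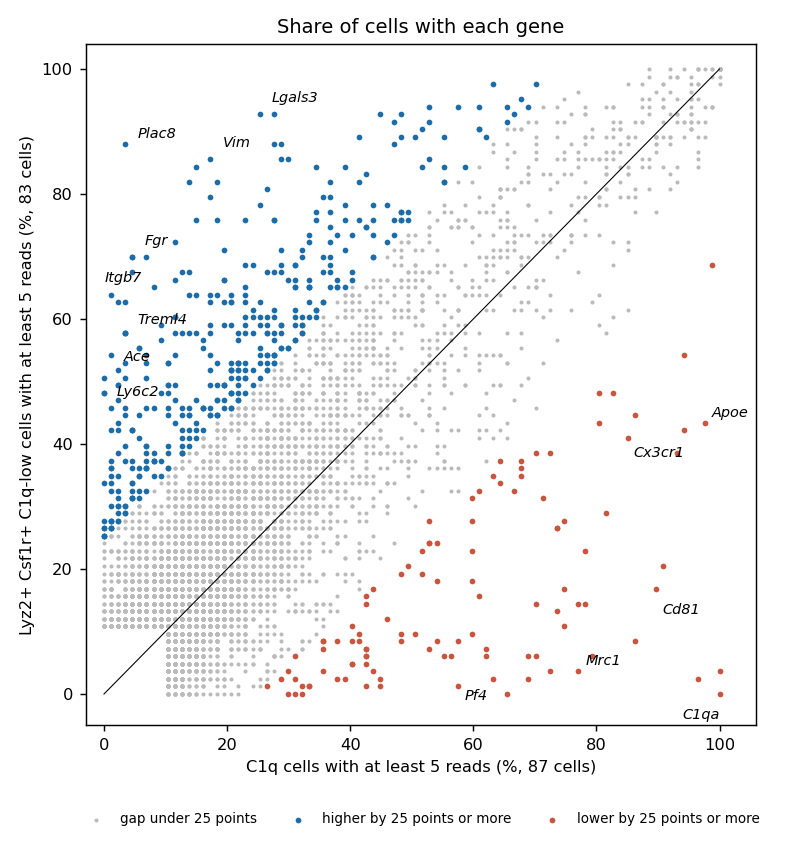
Each dot is 1 of 6560 genes, placed by the share of the 87 C1q cells (horizontal, percent) and of the 83 Lyz2+ Csf1r+ C1q-low cells (vertical, percent) in which it was present. The 391 genes higher by 25 points or more are blue and those lower by as much are red, and Plac8 lies at 3.45% and 88%.

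Resident macrophage genes were present in fewer of the cells. Of 22 list genes 17 could be compared, 13 were lower and 0 higher, with a median gap of -34.5 points. Apoe, apolipoprotein E, was present in 43.4% against 97.7% of C1q cells, Cd81, a tetraspanin, in 16.9% against 89.7%, and Mrc1, the mannose receptor, in 3.61% against 77%. Adgre1, which encodes F4/80, was present in 27.7% against 74.7%, and Maf, a macrophage transcription factor, in 14.5% against 70.1%. Cd68, a lysosomal membrane protein, was present in 85.5% against 88.5%, a gap well under 25 points. Sall1 was present in neither group. Of the genes outside the lists, Pf4, the chemokine platelet factor, was present in 0 cells against 57, and Dab2, an endocytic adaptor, in 7 against 75.

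Of 9 MHC class II genes 3 were lower and 0 higher. H2-Aa was present in 35 cells (42.2%) against 94.3%, H2-Ab1 in 32 (38.6%) against 93.1%, and Cd74, the invariant chain, in 57 (68.7%) against 98.9%. The cells differed widely among themselves, since Cd74 ran from 0 to 28941 rpm with a median of 464. Ciita, the activator of class II transcription, was present in 19 cells against 20 C1q cells, and H2-DMa, which loads peptides, in 62.7% against 67.8%.

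Complement genes outside C1q gave 4 of 10 higher and 1 lower. Beside Cfb, C3, the central component, was present in 31 cells (37.3%) against 3 C1q cells (3.45%). Within fresh pool A, however, Cfb was present in 22 of 39 cells and in 4 of 6 C1q cells. C3ar1, the receptor of the C3a fragment, was present in 2 cells against 60 and its summed level was lower by 9.45 on the log2 scale. Cfp, properdin, was present in 32 against 35.

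Among myeloid transcription factors 5 of 19 were higher (Cebpb, Irf5, Nr4a1, Id2 and Nfil3) and 1, Maf, was lower. Nfil3 was present in 40 cells and in 0 C1q cells. Spi1, which encodes PU.1, was present in 94% against 82.8%. Of 6 Fc receptor genes 0 were higher and 1, Fcgrt, was lower, and of 13 lysosomal genes 0 were higher and 1, Lgmn, was lower. Of 22 inflammatory genes, the chemokine gene Ccl6 was higher (70 cells against 30) and Cxcl16 and Ccl7 were lower (9 against 65 and 2 against 25).

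Defining dendritic cell genes were missing from most of the cells. Against C1q cells, the shared conventional dendritic list gave 2 of 9 higher (Amica1 and Cbfa2t3), the cDC1 list 0 of 14, the cDC2 list 1 of 13 (Itgam) and the plasmacytoid list 0 of 8. Flt3 was present in 5 of 83 cells, Zbtb46 in 3, Xcr1 and Cd209a in 5 each and Clec9a in 2. None of these 5 genes was present in 68 cells, 1 in 11 cells and 2 or more in 4 cells. At least 3 genes were present from the classical list in 73 cells, from the nonclassical list in 80, from the cDC1 list in 51 and from the cDC2 list in 63. Of the 87 C1q cells, 6, 51, 50 and 64 reached 3 genes of these lists. The shares for the cDC lists were thus close in both groups (61.4% against 57.5% for cDC1 and 75.9% against 73.6% for cDC2). The cDC lists hold genes that monocytes also use, such as Cd36, Itgam, Klf4 and Il1b. A single cell of day 4 in pool C had all 14 cDC1 genes present, with 4575 rpm on Xcr1, 1804 rpm on Itgae and 73.9 rpm on Clec9a, beside 648 reads on Lyz2 and 857 on Csf1r. That cell held 95.5% of the summed Xcr1 reads of the 83.

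Against all 419 other cells, 479 of 6315 genes were higher by 25 points (7.59%) and 26 were lower (0.412%), with a median gap of 5.72 points. Genes of the rule are among these by construction, with 2 higher and 3 lower. Of the classical list 8 of 14 and of the nonclassical list 11 of 19 were higher. So were 4 of 13 of the cDC2 list (Sirpa, Itgam, Klf4 and Il1b), 3 of 14 of the cDC1 list (Naaa, Cd36 and Ppt1) and 2 of 9 of the shared conventional dendritic list (Amica1 and Cbfa2t3). Ifitm3, an interferon-induced membrane protein, was present in 81 of 83 cells (97.6%) against 28.4% of other cells, and Pla2g7, a phospholipase, in 95.2% against 27.7%. Ace was present in 2 of the 419 (0.477%) and Treml4 in 9 (2.15%). Lysosomal genes (9 of 13) and Fc receptor genes (4 of 6) were higher here, which they were not against C1q cells. Ptprcap, a lymphocyte partner of CD45, was present in 0 cells against 192, and Ets1, a lymphocyte transcription factor, in 1 against 180.

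**Figure D3:**
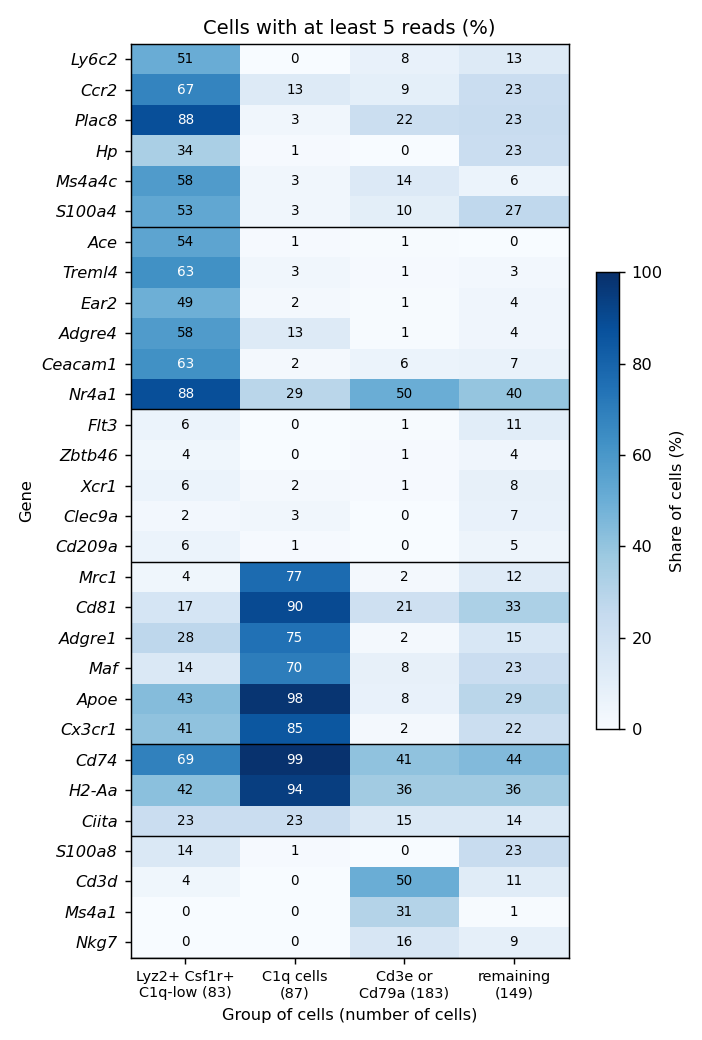
Heat map of the share of cells (percent, printed and shaded) in which each of 30 genes was present, in Lyz2+ Csf1r+ C1q-low cells (83), C1q cells (87), cells with Cd3e or Cd79a (183) and the remaining cells. Treml4 reads 62.7% in the first column and 3.45% in the second, while Apoe reads 43.4% and 97.7%.

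Genes of other lineages were mostly missing. For T and B cell genes this follows largely from the rule, which left out cells with Cd3e or Cd79a. Of the lists, 7 of 7 mast cell and basophil genes, 9 of 10 T cell genes, 7 of 9 B cell genes and 8 of 12 kidney epithelial genes were present in 0 of the 83 cells. The summed level of a list in a cell was 0 rpm throughout for mast cell genes and ran from 0 to 454 rpm for T cell, to 2093 rpm for B cell and to 470 rpm for kidney epithelial genes. Of 12 cell cycle genes 0 were higher or lower than in C1q cells, and Mki67, a marker of dividing cells, was present in 14 cells against 9.

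Of the NK and innate lymphoid list 6 of 10 genes were present in 0 cells and 1, the receptor gene Klrk1, was higher than in C1q cells (27 cells against 4), and the summed level of the list reached 1461 rpm. Of 9 genes of endothelium and stroma 5 were present in 0 cells, while Pecam1, an adhesion molecule that leukocytes also carry, was present in 17 against 1, and the sum reached 1930 rpm. Erythroid genes reached 95.7 rpm in sum, with 4 of 6 present in 0 cells. The B cell list held Ighm, the IgM heavy chain, in 24 cells against 71 C1q cells.

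Neutrophil genes were present in some of the cells. Of 14 list genes 1, Csf3r, was higher than in C1q cells (37 cells against 9). At least 3 list genes were present in 10 of the 83 cells, 9 of them fresh cells of pool A and 1 of 6 h, and 0 were present in 39 cells. S100a8, a calcium-binding alarmin, had 886 to 20041 rpm with a median of 9338 in those 10 cells, and was present in 2 of the other 73. Ace was present in 2 of 10 and 43 of 73. Csf1r had a median of 899 rpm in the 10 cells and 1753 rpm in the others. Without cells with 3 or more neutrophil genes, 390 genes were higher than in C1q cells, and 472 were higher and 32 lower than in all other cells.

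Ace and Treml4 were present together more often than apart. Both were present in 42 cells, only Ace in 3, only Treml4 in 10 and neither in 28, and 2 of the 419 other cells had both. This split was chosen after the values had been seen. Cells with both were found in fresh pool A (22), fresh pool B (1), 6 h (8), day 1 (7), day 2 (2) and day 3 (2), and cells with neither in fresh pool A (12), fresh pool B (2), 6 h (5), day 1 (3), day 3 (3) and day 4 (3). Cells with both held fewer genes (median 2181.5 against 2781.5) and fewer reads (581450 against 732232).

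**Figure D4:**
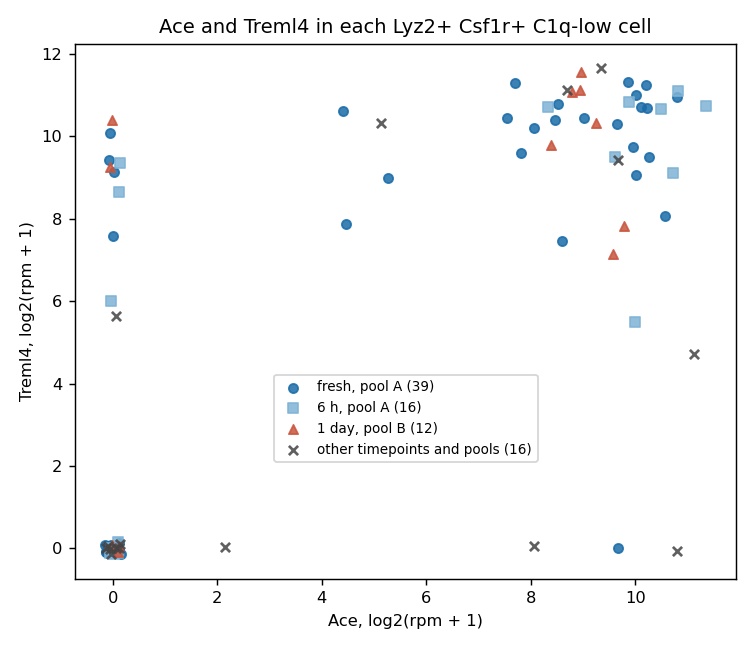
Level of Ace (horizontal) and Treml4 (vertical) in each of the 83 cells on a log2(rpm + 1) scale with slight jitter, coloured by fresh pool A, 6 h, day 1 and other groups. The 28 cells with neither gene crowd at the origin and the 42 with both fill the upper right, with every colour in both places.

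Of 7071 genes compared between cells with both genes and cells with neither, 317 differed by 25 points, of which 192 (2.72% of all compared) were lower and the rest (1.77%) higher, with a median gap of -4.76 points. In fresh pool A alone, with fewer cells, 280 were higher and 571 lower. Ace and Treml4 themselves are among the higher genes by construction. Of the nonclassical list 12 of 19 were higher, those 2 included, and of the classical list 3 of 14 were lower, F13a1 and Fn1 among them. Eno3, a muscle-type enolase, was present in 20 of 42 against 0 of 28, Adgre4, an EGF-like adhesion receptor, in 31 against 7, Itgal in 42 against 17, Ear2 in 27 against 7 and S1pr5 in 22 against 4. Fn1, fibronectin, was present in 1 of 42 against 10 of 28. Ly6c2 was present in 20 of 42 against 15 of 28 and Ccr2 in 24 against 21, so both markers of classical monocytes were found on either side. Within fresh pool A alone (22 against 12 cells) Eno3 was present in 13 against 0 and Adgre4 in 16 against 3. At least 3 neutrophil genes were present in 2 cells with both and in 7 cells with neither, and without these cells 307 genes were lower.

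Interferon-inducible genes were present in more of the fresh cells of pool A than in the other groups. Of 17 genes of a type I interferon list, 7 were higher than in C1q cells and 0 lower, but most Lyz2+ Csf1r+ C1q-low cells were from pool A, and within timepoint and pool Gbp2 and Zbp1 were higher in 2 of 3 groups by a gap of any size. Per cell, a median of 9 list genes was present in fresh pool A (range 3 to 13), 6 at 6 h (1 to 12), 3.5 in fresh pool B (2 to 4) and 3 at day 1 (2 to 7). Gbp2 (chromosome 3, 142620602 to 142638008), a guanylate binding GTPase induced by interferons, had 0 to 9627 rpm with a median of 1386 in fresh pool A, where 35 of 39 cells carried it. At 6 h it was present in 8 of 16 cells (median 341 rpm, highest 10014), at day 1 in 2 of 12, in fresh pool B in 0 of 4, at day 2 in 0 of 4 and at day 3 in 1 of 5. The highest values of fresh pool A and of 6 h were those of cells with 3 or more neutrophil genes. All 10 of these cells carried Gbp2, and of the other 73 cells 37 did, with at most 4383 rpm. The other groups held few cells with the gene.

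Zbp1, a sensor of nucleic acids, was likewise most widely present in fresh pool A, with 29 of 39 cells (median 299 rpm), against 8 of 16 at 6 h (8.27 rpm), 1 of 12 at day 1, 1 of 4 in fresh pool B, 0 of 4 at day 2 and 2 of 5 at day 3. Isg15, a ubiquitin-like modifier, was present in 20 of 39 cells of fresh pool A, in 2 of 16 at 6 h and in 0 cells of fresh pool B and of days 1, 2 and 3. Cfb was present in 22 of 39, 3 of 16, 2 of 12 and 0 of 4 cells of fresh pool A, 6 h, day 1 and fresh pool B, Ly6i in 28, 7, 0 and 0, and Fcgr4, an activating IgG receptor, in 26, 10, 0 and 0. At day 2 Cfb, Ly6i and Fcgr4 were present in 0, 1 and 1 of 4 cells and at day 3 in 0, 1 and 2 of 5. Irf7 did not keep that order, with 33 of 39 in fresh pool A and 4 of 5 at day 3.

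The other cells of fresh pool A carried interferon genes too. Gbp2 was present in 24 of its 36 other cells against 4 of 77 in fresh pool B, Zbp1 in 20 against 10 and Isg15 in 16 against 1. By kind of cell, Gbp2 was present in 5 of 6 C1q cells of fresh pool A against 1 of 8 of fresh pool B, in 16 of 21 against 0 of 8 remaining cells, and in 3 of 9 against 3 of 61 cells with Cd3e or Cd79a. The difference between the 2 fresh groups was thus also seen outside Lyz2+ Csf1r+ C1q-low cells, and animal and pool cannot be told apart in it.

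The promoters of 3 interferon-inducible genes are shown as examples that hold the letters described next. In RefSeq windows of 250 bases before the start of a gene (GRCm38.p6), the core letters of the interferon-stimulated response element (GAAA, 2 bases of any kind and GAAA again, on either strand, with overlapping matches kept) were found for 12 of 19 genes with an entry from the type I interferon and guanylate binding lists (63.2%, in any window of the gene) and for 936 of all 27025 genes (3.46%). By single windows, 12 of 21 held them (57.1%), against 978 of 32851 (2.98%). The stretches below run 5′ to 3′ on the strand of the gene, with the matching letters in capitals, and lie at chr4:156200862-156200921 on the minus strand (Isg15), chr3:142620579-142620638 (Gbp2) and chr3:142559974-142560033 (Gbp3), both on the plus strand.
Isg15: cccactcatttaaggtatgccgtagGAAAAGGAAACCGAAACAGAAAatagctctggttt
Gbp2: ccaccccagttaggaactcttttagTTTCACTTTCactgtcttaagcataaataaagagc
Gbp3: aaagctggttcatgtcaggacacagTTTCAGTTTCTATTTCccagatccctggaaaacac
Isg15 carried 3 overlapping matches, Gbp3 2 in the window shown and 0 in its other window, and Gbp2 1, and in Gbp2 the match starts 59 bases before the RefSeq start. Gbp3 was present in 30 of 39 cells of fresh pool A, 9 of 16 of 6 h, 4 of 12 of day 1 and 1 of 4 of fresh pool B. No match was found in the windows of Irf7, Oasl2 or Ifitm3, among others, which says only that these letters are not in them. A match is a description and not a bound site.

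**Figure D5:**
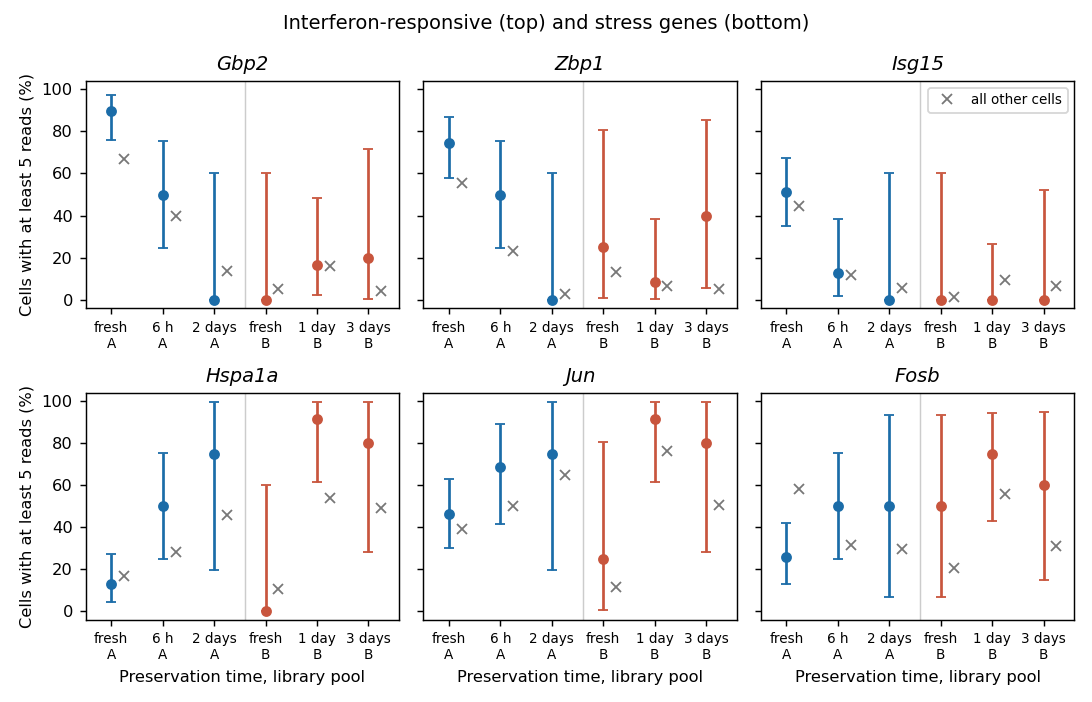
Share of Lyz2+ Csf1r+ C1q-low cells (percent, coloured points with exact 95% intervals) in which Gbp2, Zbp1 and Isg15 (top) and Hspa1a, Jun and Fosb (bottom) were present, by timepoint and pool, with all other cells of the same group as grey crosses. Gbp2 stands at 89.7% in fresh pool A and 50% at 6 h, and Hspa1a stands at 12.8% in fresh pool A and 91.7% at day 1.

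Storage for 6 h was the only interval at which at least 8 cells could be compared within a pool, 16 cells of 6 h against 39 fresh cells of pool A. Of 7220 genes 150 were higher by 25 points at 6 h (2.08%) and 213 lower (2.95%), with a median gap of -1.76 points. These counts were not adjusted for reads per cell, whose median was 954085 at 6 h and 681952 in fresh pool A. The median was 371714 at day 1 and 447390 in fresh pool B. Of the type I interferon list 4 of 17 were lower and 0 higher (Isg15, Irf7, Oasl2 and Ly6i), of the guanylate binding list 2 of 11 were lower (Gbp2 and Irgm1), and of the classical list 2 of 14 were lower, Ly6c2 among them, and 1, S100a4, was higher. Ly6c2 had 0 to 7829 rpm with a median of 1059 in fresh cells, where 29 of 39 carried it, and was present in 4 of 16 at 6 h. Other genes with wide gaps were the antiviral gene Oas1a (1 of 16 against 22 of 39), the MYC antagonist gene Mxd1 (3 against 27), Tnfaip2 (6 against 35) and Tmem14c (1 against 25). Of 13 leukocyte receptor genes 3 were lower (Tlr2, Cd86 and Cd274).

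Higher at 6 h were Cxcr4, the receptor for CXCL12 (10 of 16 against 8 of 39), Itgam (13 against 21), the chemokine gene Ccl3 (11 against 16) and the chaperone genes Hspa1a and Hspa1b. Many of the genes with the widest gaps were ribosomal protein pseudogenes or unnamed models, such as Gm4604 (14 of 16 against 8 of 39) and Rpl18-ps1 (12 against 5). Named coding genes were among them too, such as Lrrc58 (15 of 16 against 15 of 39). Of the 150 higher genes 62 (41.3%) were pseudogenes or not held by GENCODE M21, against 11 of 213 lower genes (5.16%) and 703 of all 7220 compared (9.74%). Reads on such copies can come from the parent gene, and without them 88 genes were higher. Without cells with 3 or more neutrophil genes 223 were higher and 202 lower.

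Of 20 heat shock and immediate early genes, 2 were higher at 6 h than in fresh cells of pool A by 25 points (Hspa1a and Hspa1b) and 0 were lower, with a median gap of 1.04 points. Per cell, a median of 11 was present in fresh pool A (range 6 to 17), 13 at 6 h (4 to 18) and 16 at day 1 (14 to 17), and the summed median level was 12541, 22623 and 36586 rpm. Hspa1a (chromosome 17, 34969190 to 34972156), the inducible HSP70, was present in 5 of 39 cells of fresh pool A, 8 of 16 of 6 h, 0 of 4 of fresh pool B, 11 of 12 of day 1 (0 to 2569 rpm, median 690), 3 of 4 of day 2 and 4 of 5 of day 3. Each group of 6 h to day 3 thus held a larger share of cells with Hspa1a than the fresh cells of its pool, though 4 fresh cells of pool B are few. Hspa1b, its near-identical neighbour, was present in 31 of the 34 cells with Hspa1a and in no other cell of the 83. The core of the heat shock element is GAA, TTC and GAA with 2 bases of any kind between them, on either strand. It was found in the RefSeq windows used for 1 of 6 chaperone genes of this list (Hspe1, 16.7%, in any window of the gene). Of all genes with a window used, 0.514% held it. No match was found for Hspa1a or Hspa1b, which says only that these letters are not in their windows.

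Among the other cells of the same groups Hspa1a was present in 6 of 36 in fresh pool A, 17 of 60 at 6 h, 8 of 77 in fresh pool B and 34 of 63 at day 1, so the order was the same there. Jun, an AP-1 subunit, was present in 18 of 39 cells of fresh pool A, 11 of 16 of 6 h, 1 of 4 of fresh pool B and 11 of 12 of day 1, and Fosb in 10, 8, 2 and 9 of these. Fos was present in 37 of 39 fresh cells of pool A, 15 of 16 at 6 h and 12 of 12 at day 1, so its share left little room to differ, and its median levels were 1762, 3751 and 9187 rpm. In the 4 fresh cells of pool B, which all carried Fos, the median was 3062 rpm. Egr1, an immediate early transcription factor, was present in 20 of 39, 5 of 16 and 9 of 12 cells of fresh pool A, 6 h and day 1, and Hsp90ab1, a constitutive chaperone, in 36 of 39 and 13 of 16 of fresh pool A and 6 h. The constitutive chaperone gene Hspa8 was present in 38 of 39, 16 of 16 and 12 of 12 cells of fresh pool A, 6 h and day 1.

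Among cold-inducible genes, Rbm3, an RNA-binding protein raised by cooling in many cells, was present in 26 of 39 cells of fresh pool A, 13 of 16 of 6 h, 5 of 12 of day 1, 0 of 5 of day 3, 2 of 4 of fresh pool B and 1 of 4 of day 2. Cirbp was present in 6, 2 and 0 of these cells of fresh pool A, 6 h and day 1, in 1 of 4 of fresh pool B, 1 of 4 of day 2 and 0 of 5 of day 3.

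The monocyte genes differed in how their shares varied over the better filled timepoints. Ly6c2 was present in 29 of 39 cells of fresh pool A, 4 of 16 of 6 h and 2 of 12 of day 1. Treml4 was present in 26 of 39 cells of fresh pool A, 11 of 16 of 6 h and 9 of 12 of day 1, and Ace in 23, 8 and 7 of them. Plac8 was present in 37, 15 and 8 of these cells, with medians of 3112, 2048 and 1135 rpm. Ear2 was present in 16, 6 and 9 and Cx3cr1 in 9, 6 and 9 cells, the largest shares being those of day 1. Il1b, the inflammatory cytokine, was present in 32, 10 and 9 and Ccl3 in 16, 11 and 10. Day 1 belongs to pool B, whose 4 fresh cells held Ly6c2 in 2, Treml4 in 2, Ace in 1, Plac8 in 3, Ear2 in 3, Cx3cr1 in 2 and Il1b in 1 cell, and its storage time and pool cannot be told apart from fresh pool A.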

How the data were processed

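Libraries of single Cd45+ cells were made in a SmartSeq2-like way. After trimming to 75 bp and removal of duplicates with picard, the authors mapped reads to GRCm38 using STAR and obtained gene counts from HTSeq in its intersection-strict mode without strand, and cells under 1000 reads were left out. No source used here gives a version of STAR, HTSeq or picard. The deposited values are raw counts per gene in 502 cells (1759 to 1895431 reads on genes). Reads from overlapping or antisense genes cannot be told apart, and without molecular identifiers reads are not independent molecules, so all intervals cover counting error only.

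Of 46700 rows, 97 spike-in and vector rows (0.140% of counts) were left out. Cells were grouped by labels into timepoint and pool, the code in their titles. The pairs of numbers that follow this code recur between pools (177 of 317) but mark at most 1 cell within a pool, and 0 columns were identical. Genes present (at least 5 reads) in at least 10% of either group were compared, a gap of 25 percentage points was called, and named genes were those of 32 fixed lists and those with the widest gaps, up to 15 per direction, or 6 for comparisons within the selected cells. No test was made between groups, since labels name no animal and cells are not replicates. A few genes of the lists are counted but not reported here by name. The rule for the cells and the gene lists were chosen with earlier results of these data known. Settings were varied as described at the end. Python 3.11.15 with numpy 2.4.6, pandas 2.3.3, scipy 1.17.1 and matplotlib 3.10.9 was used, and R 4.3.3 with edgeR 4.0.16 and DESeq2 1.42.0 for normalization factors only. Gene positions are those of GENCODE M21 (GRCm38).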

Additional observations from a re-analysis of the deposited data

How the results depend on the processing

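With at least 1 or 10 reads in the rule 83 and 81 cells were selected, of which 76 and 80 were among the 83, and with both C1q genes under 5 reads 80 were. The share of fresh cells that met the rule was 27.6% over both pools, 52% in pool A and 4.94% in pool B. Of 500 genes that differed from C1q cells 391 were higher, and those lower numbered 596 in fresh cells, 259 in pool A and 176 in pool B, and genes lower than in all other cells 26, 75 in fresh cells, 11 in preserved cells, 64 in pool A and 45 in pool B, where fewer cells were compared. At 6 h 150 genes were higher, and 88 without pseudogenes. The cDC1 list gave 51 cells with at least 3 genes and 30 with at least 4. Between cells with both Ace and Treml4 and cells with neither, 280 genes were higher and 571 lower in fresh pool A alone, where fewer cells were compared, against 317 in all, of which 192 were lower. There were 307 lower without cells with 3 neutrophil genes. The settings for Ace and Treml4, that without pseudogenes and that without neutrophil-gene cells at 6 h were chosen after seeing the data. The mean of log2(rpm + 1) in place of summed CPM reversed the ratio to C1q cells of Rora (0.054), Rsad2 (0.17), Siglech (-0.055), Snx22 (-0.46) and Ube2c (0.058), and the cause was not tested. Of the alternatives for log2 ratios 975 lay within 0.5 of the reported ratio, 208 moved further and 5 reversed. For shares of selected genes in fresh pool A, 6 h and day 1, 168 of 168 alternatives lay within the 95% interval of the reported share. These intervals rest on 12 to 39 cells and are wide, and the same cells were used, so few alternatives could have left them. The share of fresh cells that met the rule left its interval (20.7 to 35.3%) in either pool alone. TMM and DESeq2 factors shifted all ratios by 0.01 on the log2 scale. No paired analysis was possible because labels name no animal and the numbers of cells only follow their order, and since cells are not replicates none was left out.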
